A study of Mus musculus with 6 samples.

Results

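Collagen cross-linking and folding enzymes are described here by 10 genes: the lysyl oxidases Lox, Loxl1, Loxl2 and Loxl3, the lysyl hydroxylases Plod1, Plod2 and Plod3, the prolyl 4-hydroxylase alpha subunits P4ha1 and P4ha2, and the collagen chaperone Serpinh1. They were chosen by name, and all 10 were found among the 20015 genes of the deposited table and passed the count filter that left 16095 genes. The samples are RNA libraries of quadriceps, the knee extensor, with 3 labelled as injured at the anterior cruciate ligament (ACL) and 3 labelled as non-injured. The libraries of each group carry the letters A, B and C. All 6 share the labels skeletal muscle, Mus musculus and total RNA, and the labels used here give no strain, age, sex, time after injury or kind of injury, nor whether non-injured means other animals or the other limb. The series text speaks of human tissue before reconstruction surgery, while the table holds mouse gene models, so mouse is taken as the species and mm10 as the build of all positions.

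Collagen chains are modified in the endoplasmic reticulum before they fold into a helix. Prolyl 4-hydroxylases, which pair an alpha subunit with protein disulfide isomerase (P4hb), make the hydroxyproline that keeps the helix stable at body temperature, lysyl hydroxylases make the hydroxylysine that carries sugars and shapes later cross-links, and HSP47, the product of Serpinh1, binds the folded procollagen on its way out. Outside the cell, copper-dependent lysyl oxidases turn lysine and hydroxylysine side chains of collagen and elastin into aldehydes that join neighbouring molecules, which stiffens the matrix around muscle fibres and in tendon.

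Injured quadriceps held more mRNA for the lysyl oxidases, and no hydroxylase passed the test. Of the 10 members 4 rose (Lox, Loxl1, Loxl2 and Loxl3) and 0 fell by edgeR's quasi-likelihood test at an adjusted p under 0.05, where 0.715% of all genes tested were called higher and 0.0311% lower. At an unadjusted p under 0.05, 5 members were higher, the 4 oxidases and Serpinh1, and 0 were lower, against 9.25% and 6.11% of all genes. DESeq2 called 5 higher and 0 lower, against 1.57% and 0.466% of all genes, and limma-voom called 1 higher, Lox, and 0 lower, against 0.329% and 0.0373%. With the letter as a block, 5 members rose and 0 fell, against 3.21% and 2.65% of all genes. The libraries of the groups did not overlap for 5 higher members (Lox, Loxl1, Loxl2, Loxl3 and Serpinh1; 11.9% of all genes) and for 1 lower member, Plod1 (9.57%). The members' median log2 fold change was 0.56, and that of all genes 0.00.

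**Figure D1:**
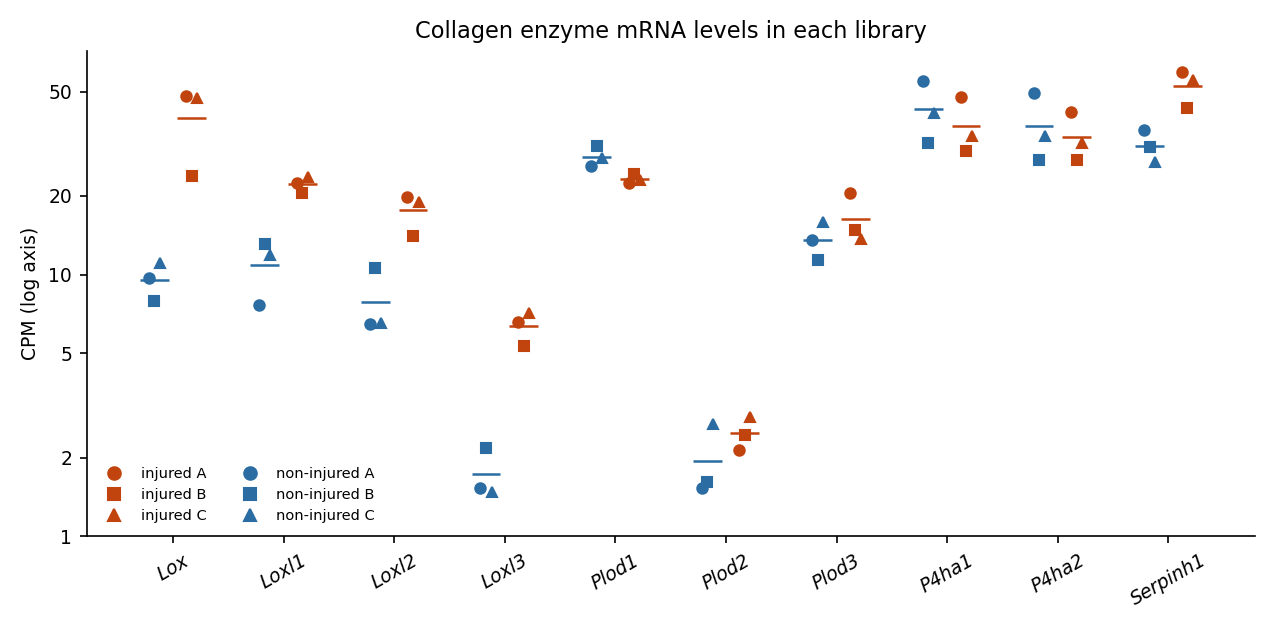
Level of each member in each library, in scaled counts per M counts (CPM) on a log axis; points are libraries, shapes are letters, and bars are group means of 3 libraries. The 4 lysyl oxidases and Serpinh1 lie higher in all injured libraries than in any non-injured one, Plod1 lies lower, and P4ha1, P4ha2, Plod2 and Plod3 overlap.

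Library totals ran from 6.45 to 8.75 M counts. Summed muscle fibre markers (10 genes, such as Myh4 and Ckm) took 174522 to 183312 CPM in injured and 190296 to 198858 CPM in non-injured libraries. Of these 10 markers 0 were called by edgeR, DESeq2, limma-voom or with the block, and 0 had an unadjusted p under 0.05. Their median log2 fold change was -0.09, and 1 lay lower without overlap. Markers of the cells that make most collagen in muscle, fibro-adipogenic progenitors and fibroblasts, summed to 582 to 691 CPM in injured and 677 to 754 CPM in non-injured libraries, with 0 of 12 called by edgeR, DESeq2 or limma-voom, 3 at an unadjusted p under 0.05 and 1 higher with the block. Gelsolin (Gsn) took most of that sum, with 339 to 424 CPM after injury against 447 to 532 CPM, and the other 11 markers summed to 243 to 267 CPM in the injured group against 214 to 230 CPM, a split made after the values were seen. Of the 12 markers 11 had a positive log2 fold change, the median was 0.28, and 4 lay higher without overlap against 1 lower, Gsn. Macrophage markers summed to 115 to 206 CPM in injured and 56.9 to 68.5 CPM in non-injured libraries, and 5 of 11 tested rose. Of 6 tenocyte markers 3 were in the table (Scx, Fmod and Thbs4, without Tnmd, Mkx and Kera), summing to 49.2 to 56.7 CPM in injured and 34.4 to 42.9 CPM in non-injured libraries, with 0 called by edgeR, 2 at an unadjusted p under 0.05, 1 by DESeq2, 0 by limma-voom and 2 higher with the block. Red cell markers summed to 132 to 324 CPM after injury against 71.4 to 151 CPM, and their median log2 fold change was 1.37. All 5 had a positive sign, 4 had an unadjusted p under 0.05, 1 rose by edgeR and by DESeq2, 0 by limma-voom and 4 with the block. Adipocyte markers summed to 19.5 to 26.9 CPM in injured and 35.8 to 57.7 CPM in non-injured libraries. Of these 5 markers 0 were called by edgeR, DESeq2 or limma-voom, 4 had an unadjusted p under 0.05 and 3 fell with the block. Over all genes tested, 0.715% rose and 0.0311% fell by edgeR, and 3.21% rose and 2.65% fell with the block. Without overlap 11.9% lay higher and 9.57% lower. The part of these cell types in the members' values was not tested. In whole tissue a different number of cells of a type and a different amount of RNA per cell cannot be told apart. The sources differ on whether these libraries hold RNA of whole tissue or of muscle fibre nuclei, and which of them holds was not tested. The reading of every marker sum above depends on it.

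Lox, on chromosome 18 and the founding lysyl oxidase, rose after injury. Its level was 48.1, 23.8 and 47.1 CPM in injured A, B and C and 9.69, 7.92 and 11.1 CPM in non-injured A, B and C. Injured B lay well under the other injured libraries and still above every non-injured one. The mean rose from 9.58 ± 1.6 to 39.7 ± 13.7 CPM (SD, n = 3 per group), or 2.05 ± 0.25 on the log2 scale (SE, adjusted p 0.00287). The 95% interval of the fold was 2.84 to 6.08. The increase passed whichever library was left out, with adjusted p from 0.000375 to 0.0258, as well as by limma-voom (0.0123). Within the letters A, B and C the log2 difference was 2.30, 1.58 and 2.08.

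Loxl3 (chromosome 6, 83034173 to 83052562), a lysyl oxidase known from cartilage and from the junction of muscle and tendon, rose from a much lower level. It stood at 6.58, 5.35 and 7.12 CPM in injured A, B and C and at 1.53, 2.18 and 1.47 CPM in non-injured A, B and C. Injured libraries lay close together, and the gap to the highest non-injured library, B, was wide. The log2 fold change was 1.86 ± 0.34 (SE, adjusted p 0.0285), a 3.63-fold rise with a 95% interval from 2.18 to 6.06. Loxl3 rests on a mean of 28.3 counts per library, and 535 of its 4603 exonic bases are shared with Htra2 on the opposite strand. For Htra2 itself the log2 value was 0.06 ± 0.25 (SE, adjusted p 0.94).

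Loxl2 (chromosome 14, 69609068 to 69695834), which acts on the collagen IV of basement membranes, stood at 19.8, 14.1 and 18.9 CPM in injured A, B and C and at 6.50, 10.6 and 6.56 CPM in non-injured A, B and C. The libraries of letter B came nearest to each other, with a log2 difference of 0.41 against 1.59 for A and 1.52 for C. Over all libraries Loxl2 rose 2.22-fold (log2 1.15 ± 0.24 SE, adjusted p 0.0459), with a 95% interval from 1.55 to 3.17.

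Loxl1 (chromosome 9, 58287738 to 58313186), which is best known for the cross-linking of elastin, had 22.4, 20.5 and 23.6 CPM in injured A, B and C and 7.65, 13.1 and 11.9 CPM in non-injured A, B and C. The injured libraries were nearly level and the non-injured ones differed among themselves, with A lowest. The rise was 2.03-fold (log2 1.02 ± 0.21 SE, adjusted p 0.0446), with a 95% interval from 1.49 to 2.78.

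The calls of Loxl1, Loxl2 and Loxl3 stand close to the threshold, unlike that of Lox. By limma-voom their adjusted p were 0.054, 0.0622 and 0.051. Loxl1 missed the threshold in all 6 fits that left out 1 library (adjusted p from 0.0688 to 0.18), Loxl2 kept it without non-injured B (0.0367) and lost it without any of the others (up to 0.23), and Loxl3 kept it without injured B (0.0457) and lost it without any of the others (up to 0.176). Their log2 fold changes stayed from 0.80 to 1.16, from 1.01 to 1.41 and from 1.74 to 2.05 in those fits. With the letter block the adjusted p were 0.0043, 0.00797 and 0.0068, and without both libraries of letter A 0.051, 0.0818 and 0.0524.

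**Figure D2:**
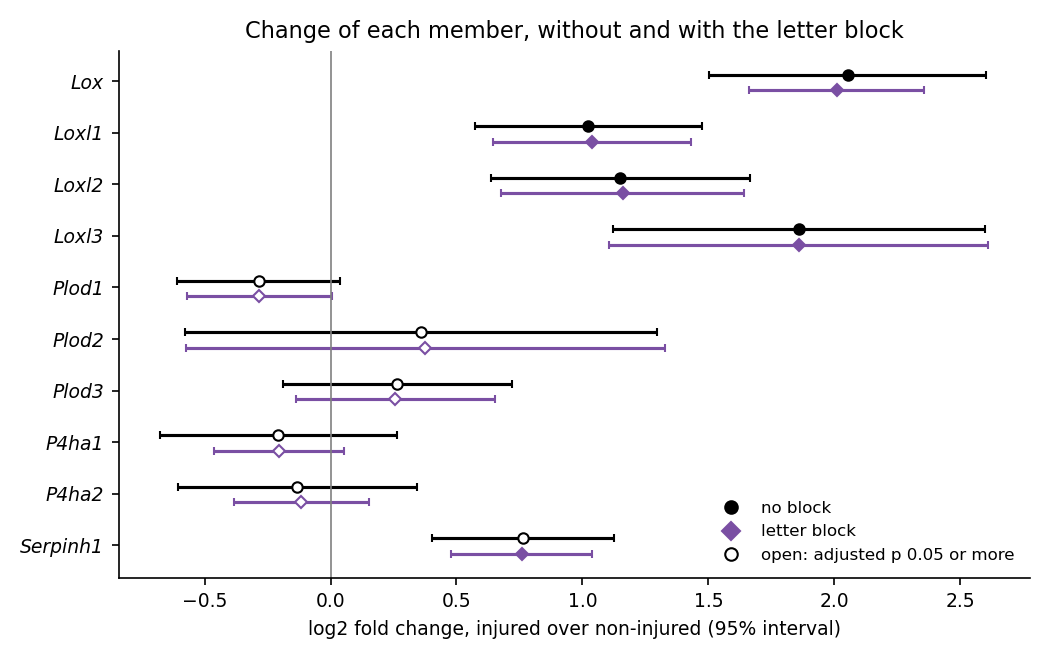
Log2 fold change of each member, injured over non-injured, with its 95% interval, without a block (circles) and with the letter as a block (diamonds); filled symbols passed an adjusted p of 0.05. The 4 oxidases are filled in both fits, Serpinh1 is filled with the block, and the intervals of the 5 hydroxylases reach across 0.

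The balance among the oxidases was compared as ratios within each library. Lox had 2.15, 1.16 and 1.99 counts per Loxl1 count in injured A, B and C and 1.27, 0.605 and 0.933 in non-injured A, B and C. These groups overlapped, and the difference in mean log2 ratio was 0.93 (exact permutation p 0.2, two-sided). Within the letters A, B and C that difference was 0.76, 0.94 and 1.10, the same sign in each. The Lox to Loxl2 ratio did not overlap between groups, by a narrow margin, with 1.70 in injured B and 1.69 in non-injured C (log2 difference 0.81, exact permutation p 0.1), and was 0.71, 1.18 and 0.56 within the letters. The Lox to Loxl3 ratio overlapped widely (log2 difference 0.10, exact permutation p 0.7), and its sign differed among the letters (0.21, 0.30 and -0.19). In all 13 such ratios were tested, 3 libraries against 3 cannot give an exact p under 0.1, and every adjusted p was 0.217 or more. An exact sign-flip test over the 3 letters, added after the data were seen, cannot go below 0.25, and gave 0.25, 0.25 and 0.5 for these ratios.

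Serpinh1 (chromosome 7, 99345376 to 99353239), which encodes HSP47, had the highest mean level per kilobase of exon among the members in both groups. It stood at 59.6, 43.3 and 55.4 CPM in injured A, B and C and at 35.6, 30.7 and 26.9 CPM in non-injured A, B and C. All injured libraries lay above all non-injured ones, with the smallest gap between injured B and non-injured A. The log2 fold change was 0.76 ± 0.17 (SE), or 1.70-fold with a 95% interval from 1.32 to 2.18, and missed the threshold with an adjusted p of 0.0584. It passed with the letter block (adjusted p 0.00377), by DESeq2 (0.0136), when injured B (0.042) or non-injured A (0.0486) was left out, and without both libraries of letter A (0.0318). It missed by limma-voom (0.0707), with RLE scaling (0.0655) and without the count filter (0.0769). Leaving out any other single library also gave a miss (adjusted p up to 0.287). Set against Hspa5 (BiP, the general chaperone of the endoplasmic reticulum), Serpinh1 had 0.477, 0.536 and 0.547 counts per Hspa5 count in injured A, B and C and 0.335, 0.379 and 0.305 in non-injured A, B and C. The ratio was higher in each injured library than in any non-injured one (log2 difference 0.62, exact permutation p 0.1). For Hspa5 itself the log2 value was 0.16 ± 0.17 (SE, adjusted p 0.725).

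P4ha1 and P4ha2, which encode alternative catalytic subunits of prolyl 4-hydroxylase, were not called and moved together from library to library. P4ha1 (chromosome 10, 59323296 to 59373304) had 47.8, 29.6 and 33.7 CPM in injured A, B and C and 55.1, 31.8 and 41.5 CPM in non-injured A, B and C. P4ha2 (chromosome 11, 54100095 to 54131665) had 42.0, 27.4 and 31.8 CPM in injured A, B and C and 49.5, 27.4 and 33.9 CPM in non-injured A, B and C. For both genes letter A was highest and letter B lowest in each group. The log2 fold changes were -0.21 ± 0.22 for P4ha1 and -0.13 ± 0.22 for P4ha2 (SE, adjusted p 0.707 and 0.822). Their 95% intervals on the log2 scale, -0.68 to 0.26 and -0.61 to 0.34, leave room for a moderate change either way. The sign for P4ha2 turned when injured B (0.00082) or non-injured A (0.12) was left out. The P4ha1 to P4ha2 count ratio ran from 1.06 to 1.14 in injured and from 1.11 to 1.23 in non-injured libraries (log2 difference -0.09, exact permutation p 0.2). Across the 6 libraries the log2 CPM of the pair had a Pearson r of 0.978, and within groups 0.987; the libraries share their letters and depth.

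Because P4ha1 and P4ha2 varied in step, and Serpinh1 had the highest mean level per kilobase of exon, the stretches before their start sites are shown. They are 250 bases each on the gene's strand from RefSeq on GRCm38.p6, at chr10:59323046-59323295 (plus strand), chr11:54100674-54100923 (plus strand) and chr7:99353240-99353489 (minus strand). Capitals mark ACGTG or GCGTG, the core of the hypoxia response element, on either strand (CACGT and CACGC where it lies on the other strand), and in Serpinh1 also CAGACA, a SMAD element, read as TGTCTG.
P4ha1: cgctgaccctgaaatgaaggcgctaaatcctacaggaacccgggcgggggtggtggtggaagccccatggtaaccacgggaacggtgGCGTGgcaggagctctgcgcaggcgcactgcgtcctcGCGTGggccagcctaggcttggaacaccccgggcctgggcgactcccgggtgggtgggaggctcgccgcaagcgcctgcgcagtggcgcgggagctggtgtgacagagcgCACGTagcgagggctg
P4ha2: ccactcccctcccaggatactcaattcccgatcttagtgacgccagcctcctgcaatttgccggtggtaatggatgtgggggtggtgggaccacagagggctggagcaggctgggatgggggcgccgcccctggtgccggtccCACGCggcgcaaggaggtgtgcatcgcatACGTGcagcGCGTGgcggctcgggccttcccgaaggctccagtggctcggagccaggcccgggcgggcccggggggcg
Serpinh1: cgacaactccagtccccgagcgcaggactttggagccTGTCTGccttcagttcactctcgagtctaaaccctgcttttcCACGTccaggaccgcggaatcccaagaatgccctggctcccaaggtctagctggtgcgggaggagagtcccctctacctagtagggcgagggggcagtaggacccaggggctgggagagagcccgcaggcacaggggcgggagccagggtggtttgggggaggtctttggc

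In these stretches the core stands 3 times before P4ha1, at -163, -126 and -16 from the start, 3 times before P4ha2, at -107, -78 and -69, and 1 time before Serpinh1, at -171. The core is not particular to these genes. In the stretches before Plod3 and Plod1, which are not printed, it stands 4 times and 1 time. Over windows of 300 bases that include the start, 43.8% of 32841 RefSeq promoters hold ACGTG or GCGTG on either strand. The heat shock element, searched as alternating GAA and TTC blocks with a 2-base gap between them on both strands and found in 0.603% of the promoters, is not spelled in any of the 5 members' windows that the table gives (P4ha1, P4ha2, Plod1, Plod3 and Serpinh1). CAGACA, found in 21% of promoters, stands in that of Serpinh1 at -213. The P4ha2 stretch lies within an intron of a longer annotated transcript. A match is a spelling and not a bound site.

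The lysyl hydroxylases, which differ in the part of the collagen chain they act on, did not pass the test. Plod1 (chromosome 4, 147909753 to 147936767), which hydroxylates lysines of the helix, had 22.4, 24.1 and 23.1 CPM in injured A, B and C and 25.9, 31.0 and 27.8 CPM in non-injured A, B and C. Every injured library lay under every non-injured one, by a small margin, as for 9.57% of all genes tested. The log2 fold change was -0.29 ± 0.15 (SE, adjusted p 0.392), with a 95% interval from -0.61 to 0.04. Within the letters A, B and C the log2 difference was -0.21, -0.36 and -0.27.

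Plod3 (chromosome 5, 136987019 to 136996648), which also adds the sugars of hydroxylysine, had 20.5, 14.8 and 13.7 CPM in injured A, B and C and 13.5, 11.4 and 15.9 CPM in non-injured A, B and C. Injured A stood out and the other libraries were mixed (log2 fold change 0.27 ± 0.21 SE, adjusted p 0.592, 95% interval -0.19 to 0.72). Of its 4519 exonic bases 538 are shared with Mir702 or with Znhit1 on the opposite strand, and Znhit1's log2 fold change was 0.13 ± 0.24 (SE, adjusted p 0.841). The Plod1 to Plod3 count ratio was 1.09, 1.63 and 1.69 in injured A, B and C and 1.92, 2.73 and 1.75 in non-injured A, B and C. It was lower in each injured library than in any non-injured one, narrowly for letter C (log2 difference -0.54, exact permutation p 0.1).

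Plod2 (chromosome 9, 92542223 to 92608428), the enzyme for the telopeptide lysines from which the hydroxylysine cross-links of scar tissue form, was scarce in both groups. It had 2.14, 2.45 and 2.85 CPM in injured A, B and C and 1.53, 1.61 and 2.68 CPM in non-injured A, B and C, from a mean of 16.0 counts per library. The groups overlapped through non-injured C. At 0.36 ± 0.43 on the log2 scale (SE, adjusted p 0.748) and with a 95% interval from -0.58 to 1.30, the difference was not past the threshold, and the interval includes changes of the size seen for Loxl1 and Loxl2.

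Summed over each family, the oxidases took 96.8, 63.7 and 96.8 CPM in injured A, B and C and 25.4, 33.8 and 31.1 CPM in non-injured A, B and C. Lysyl hydroxylases took 42.0 ± 2.76 CPM in injured and 43.8 ± 2.76 CPM in non-injured libraries (SD, n = 3), and the prolyl 4-hydroxylase subunits 70.7 ± 17.0 and 79.7 ± 23.0 CPM. The oxidases' share of all the members' CPM was 34.0% ± 3.36 in injured and 16.6% ± 3.97 in non-injured libraries. The share of the prolyl 4-hydroxylase subunits was 28.0% ± 2.69 and 42.6% ± 7.68. A family's share falls when another family rises, and the subunits' own summed CPM overlapped between the groups. As 1 example, chosen after the values were seen, Lox had 1.01, 0.804 and 1.40 counts per P4ha1 count in injured A, B and C and 0.176, 0.249 and 0.268 in non-injured A, B and C.

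**Figure D3:**
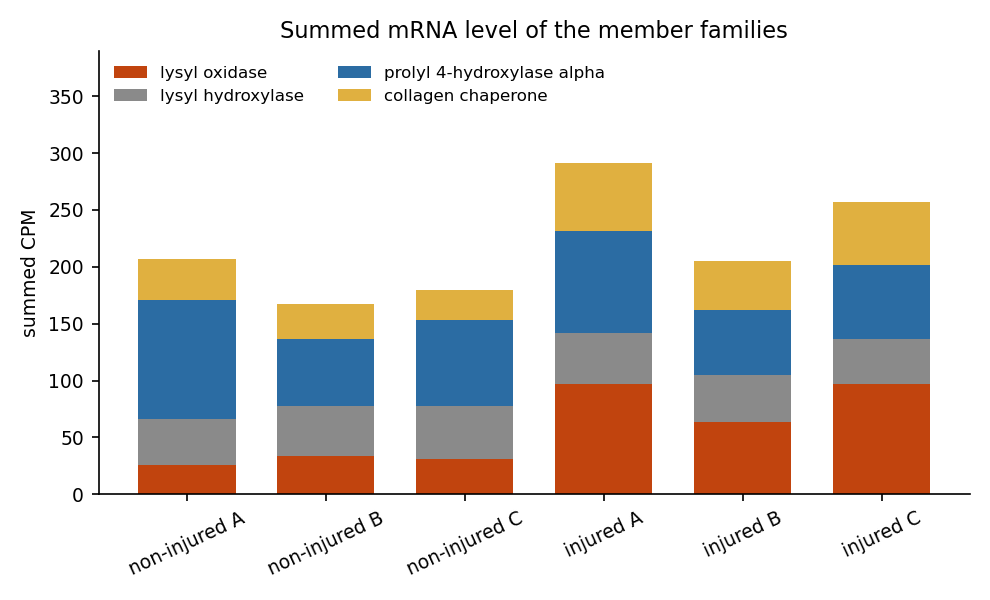
Summed CPM of the members by family in each of the 6 libraries, stacked from 0. The lysyl oxidase segment spans 63.7 to 96.8 CPM in injured and 25.4 to 33.8 CPM in non-injured libraries, while the lysyl hydroxylase segment stays from 39.6 to 46.5 CPM.

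Levels were also set per kilobase of exon, over all annotated exons of a gene, whichever of its transcripts were present. Places in the order therefore depend on the annotation too. On this scale the order of levels differed between the groups in several places. In non-injured libraries Serpinh1 (12.7 ± 1.78 CPM per kilobase) and P4ha1 (10.4 ± 2.85) led and overlapped, followed by P4ha2 (5.92 ± 1.82), Plod1 (4.18 ± 0.381), Loxl1 (3.30 ± 0.867) and Plod3 (3.01 ± 0.505), each overlapping its neighbour. Lox (2.0 ± 0.335) lay below Plod3 without overlap and overlapped Loxl2 (1.46 ± 0.43), and Loxl3 (0.375 ± 0.0855) and Plod2 (0.359 ± 0.119) were lowest and overlapped. In injured libraries Serpinh1 (21.6 ± 3.47 CPM per kilobase) stood apart at the top. P4ha1 (9.01 ± 2.31), Lox (8.31 ± 2.87), Loxl1 (6.72 ± 0.482), P4ha2 (5.40 ± 1.2), Plod3 (3.62 ± 0.811), Plod1 (3.43 ± 0.133) and Loxl2 (3.25 ± 0.569) followed, each overlapping the next. Loxl3 (1.38 ± 0.197) and Plod2 (0.46 ± 0.0655) each stood apart below. By mean level, Lox stood at place 7 in non-injured and 3 in injured libraries, Loxl1 at 5 and 4, P4ha2 at 3 and 5, and Plod1 at 4 and 7.

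Some of the collagens on which these enzymes act were higher too. Of 16 tested collagen and elastin genes 5 rose and 0 fell, with a median log2 fold change of 0.83 (Col1a1, Col1a2, Col3a1, Col5a2 and Col12a1, at 1.56 to 2.56 on the log2 scale). Without non-injured C 3 rose, and with the block 13. Over all genes tested, 0.715% rose and 0.0311% fell without the block, and 3.21% rose with it. Of 12 proteins that bind collagen or steer its cross-linking 5 rose: Postn (periostin, log2 4.76), Tnc (tenascin C, 3.40), Bgn (biglycan, 1.67), Fn1 (fibronectin, 1.64) and Sparc (0.95). Both lists hold genes already known to be high in these libraries.

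Counts were also set against those of Col1a1, the main fibrillar collagen chain, in the same library. Lox had 0.209, 0.167 and 0.188 counts per Col1a1 count in injured A, B and C and 0.434, 0.160 and 0.329 in non-injured A, B and C. The groups overlapped through non-injured B (log2 difference -0.60, exact permutation p 0.4). Serpinh1 had 0.259, 0.303 and 0.221 counts per Col1a1 count in injured libraries and 1.59, 0.621 and 0.798 in non-injured ones, in the same letter order (log2 difference -1.84, exact permutation p 0.1). P4ha2 had 0.183, 0.192 and 0.127 in injured and 2.22, 0.556 and 1.0 in non-injured libraries (log2 difference -2.71, exact permutation p 0.1). For Serpinh1 and P4ha2 every injured ratio lay under every non-injured one. Col1a1 itself rose by 2.56 on the log2 scale, so any gene that changed little has a lower ratio to it. These ratios therefore do not show a fall of Serpinh1 or P4ha2.

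**Figure D4:**
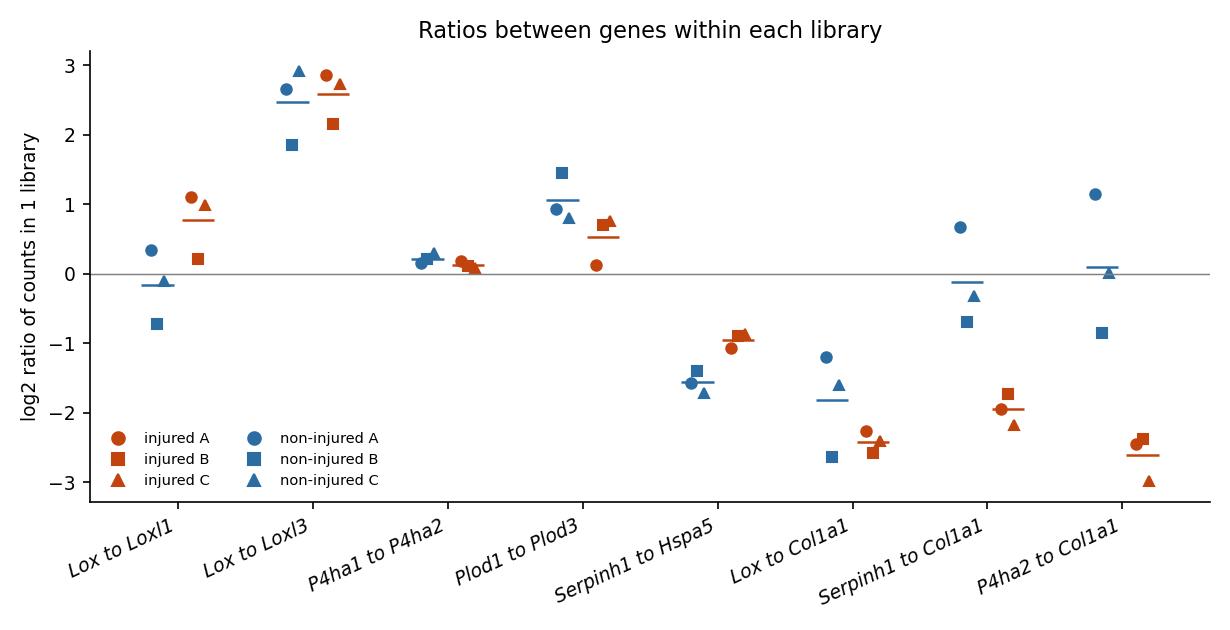
Log2 ratio of the counts of 2 genes in the same library, for 8 of the 13 ratios tested; points are libraries, shapes are letters and bars are group means. P4ha1 to P4ha2 stays within 0.09 to 0.29 in all 6 libraries, Serpinh1 and P4ha2 to Col1a1 are lower in every injured library, and Lox to Col1a1 overlaps. Col1a1 itself rose, which lowers the ratios to it.

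The other enzymes and helpers of collagen folding gave few calls. Of 22 tested, 0 changed by edgeR, DESeq2 or limma-voom, 5 had an unadjusted p under 0.05, 1 rose with the block, and the median log2 fold change was 0.22. Of these 22 genes 16 had a positive sign. Without overlap 8 lay higher and 0 lower, against 11.9% and 9.57% of all genes tested. The smallest p belonged to Fkbp10 (1.61 ± 0.42 SE, adjusted p 0.089, 0.0337 with the block), a prolyl isomerase that works with lysyl hydroxylase, at a mean of 19.0 counts. Pxdn, which cross-links collagen IV, had 0.68 (adjusted p 0.244), P4ha3, a further prolyl 4-hydroxylase subunit, 1.91 (0.266, mean of 8.33 counts) and Fkbp9 0.50 (0.296). Chosen after their values were seen, P4hb, the partner of P4ha1 and P4ha2, had 0.06 ± 0.15 (SE, adjusted p 0.903) and Loxl4, the remaining lysyl oxidase, 0.27 ± 0.43 (SE, adjusted p 0.811). Among 6 tested genes of procollagen processing, Adamts14, an N-propeptidase, rose (log2 3.43, adjusted p 0.0267, mean of 12.2 counts). With the block 2 of these rose, by limma-voom 0, without injured A 1, and without any other single library 0. Over all genes tested, 0.715% rose without the block and 3.21% with it.

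General chaperones and hypoxia-inducible genes gave no call in the fit of all 6 libraries without the block. Of 16 general chaperones and stress factors of the endoplasmic reticulum 0 changed by edgeR, DESeq2, limma-voom or with the block, 2 had an unadjusted p under 0.05 (Creld2 and Sdf2l1), and the median log2 fold change was 0.17. Of 19 hypoxia-inducible genes 0 changed by edgeR, DESeq2 or limma-voom, and 3 had an unadjusted p under 0.05. These were Adm (2.05, adjusted p 0.0975, mean of 9.17 counts), Ndrg1 (0.71, 0.204) and Car9 (-0.91, 0.279). The list's median was -0.16, and 2 genes fell with the block, Pfkfb3 and Ddit4, the latter named after its values were seen. Within the letters A, B and C the log2 difference was 0.65, -1.24 and -0.94 for Ddit4, which was thus not lower in letter A. For Pfkfb3 it was -0.88, -0.29 and -0.45. Without both letter A libraries 2 of the 19 fell, and in blocked fits that left out 1 letter 1 to 2 fell. Some members, such as P4ha1, P4ha2, Plod2 and Lox, are themselves known targets of the hypoxia-inducible factor. Lox was called higher and P4ha1, P4ha2 and Plod2 were not. The other members were not sorted by this trait, and the part of this factor was not tested. Of 11 genes of TGF-beta signalling and response 1 rose, Ltbp2 (2.7 ± 0.44 SE, adjusted p 0.0153, mean of 33.1 counts), 5 rose with the block, and the median was 0.45. Without non-injured C, or by limma-voom, 0 of these 11 rose. Over all genes tested, 0.715% rose without the block, and 3.21% rose and 2.65% fell with it.

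**Figure D5:**
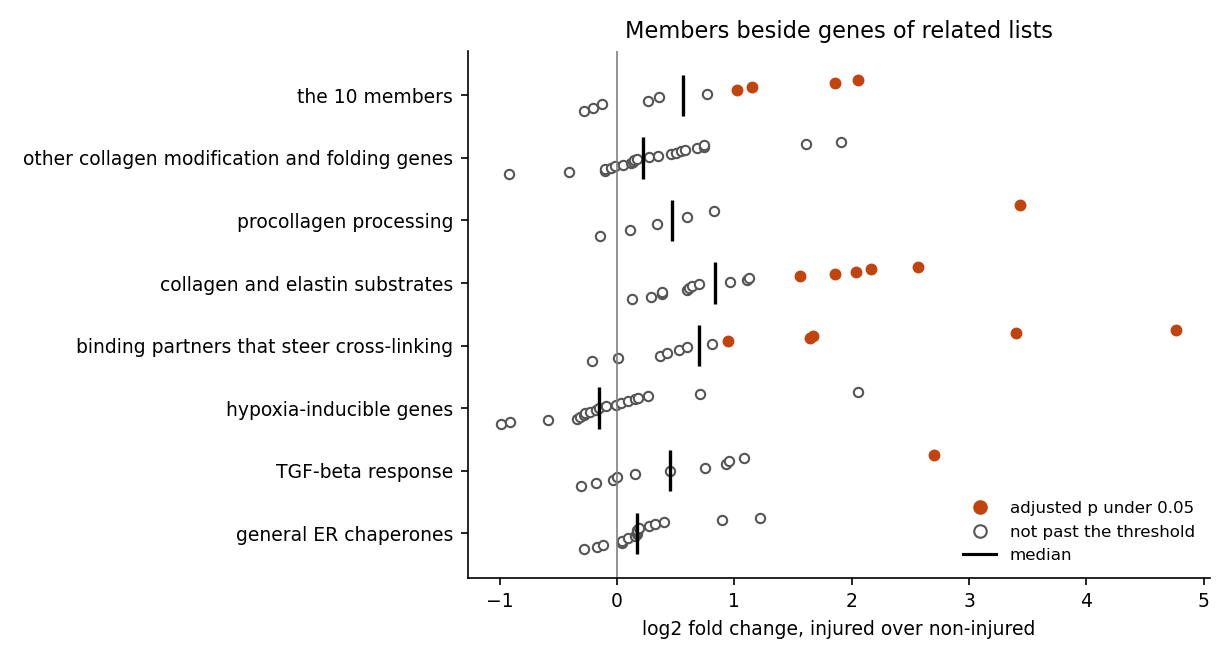
Log2 fold change of each tested gene in the members' list and in 7 related lists; filled points passed an adjusted p of 0.05 and the vertical bar is the list's median. Members have a median of 0.56, collagen and elastin substrates 0.83, and hypoxia-inducible genes -0.16.

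The genes whose levels followed Lox most closely over the 6 libraries, among 9051 genes outside the members with a mean of at least 50 counts, were Rps16-ps2 (Pearson r 0.994 of log2 CPM), Sparc (0.992), Mt1 (0.991), Mob1a (0.988) and Anxa5 (0.987). Sparc and Mt1 rose (1.93-fold and 2.22-fold, adjusted p 0.031 and 0.0153), while Rps16-ps2, Mob1a and Anxa5 did not pass (adjusted p 0.0801, 0.227 and 0.197). Rps16-ps2 is a processed pseudogene of a ribosomal protein, and its reads may come from the parent gene. These values are a ranking over libraries that share group, letter and depth.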

How the data were processed

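Per the labels and the values, the file the authors deposited holds estimated counts of reads for each gene. The submitters' processing notes list STAR 2.7.8a, Partek and DESeq2, with no role for any of them, and how reads were counted, with what annotation and strand setting, is not given in the sources used. The lowest row maximum was 10, and 96.6% of rows have the start and end of the same gene in GENCODE M21 on mm10, allowing 1 base at the end. Fractional values stand, among the members, in Loxl2, Loxl3, Plod2 and Plod3, which share 308 to 538 exonic bases each with overlapping genes, so their values are uncertain. Lox shares 30. The name of the table calls the RNA myonuclear, while the extraction protocol describes total RNA and names no isolation of nuclei.

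Counts were rounded, filtered with filterByExpr (16095 genes kept, 3920 dropped), scaled by TMM and tested with edgeR 4.0.16 in R 4.3.3 (quasi-likelihood F test, two-sided, Benjamini-Hochberg over all genes, threshold 0.05). DESeq2 1.42.0 and limma-voom (limma 3.58.1) were alternatives. Of these fits, only the edgeR fit without the block was tested on simulated data. SE was derived from the log2 fold change and its F statistic. CPM are counts over the summed counts of tested genes times the TMM factor, and exonic length is the union of GENCODE exons. Whether the libraries stem from separate animals is not labelled, and the p-values then reflect spread between libraries that could be technical.

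Same-letter libraries deviated together from their group means over 16095 genes (r = 0.316 for A, 0.208 for B and 0.113 for C). Between letters, r ran from -0.232 (injured B with non-injured A) to 0.0643 (injured B with non-injured C). Deviations from a group mean cancel within the group, so positive same-letter values force negative ones between letters, which are not separate evidence. From the same-letter values the letters were taken to pair the libraries, by the data and not by the labels, and this pairing is not certain. The main fit and the exact permutation tests did not use it. The members and lists were chosen with earlier results of these data known. Named genes were all members, the called genes of each list or else up to 4 with the smallest p, and the 5 genes most like Lox. Protein sequences, and promoters of Loxl1, Loxl2, Loxl3 and Plod2, were not used here.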

Additional observations from a re-analysis of the deposited data

How the results depend on the processing

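The count of members called higher, 4, was 1 by limma-voom, 2 without both letter A libraries and from 1 to 3 when 1 library was left out; 0 members were called lower in any fit. With the replicate block it was 5. In the alternatives run, the members other than P4ha2 kept their sign. Of all genes, 115 higher and 5 lower, DESeq2 called 252 and 75, limma-voom 53 higher, and the replicate block 516 and 427, with 344 and 336, 388 and 208, or 434 and 306 when letter A, B or C was left out of the blocked fit. Lower genes numbered 17 without a filter, 3 among genes averaging 50 counts or more, and 132 without both letter A libraries. Leaving out 1 library gave 20 to 104 higher and 0 to 25 lower genes. The log2 fold change of P4ha2 ran from -0.33 to 0.12 with 1 library left out, turning positive when injured B (0.00082) or non-injured A (0.12) was dropped, and the difference in the Lox to Loxl3 log2 ratio ran from -0.21 to 0.32. The causes were not tested. Upper quartile scaling called Serpinh1 as well (adjusted p 0.0356), as did a floor of 50 mean counts (0.043), a setting in which Loxl3 and Plod2 are not tested. Low counts limit Plod2 and Loxl3.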
